A study of Mus musculus with 4 samples.

Results

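Obox1, Obox2, Obox3, Obox5 and Obox6, the oocyte-specific homeobox (Obox) genes, were read from RNA-Seq of mouse oocytes. They are the 5 rows of the table that carry an Obox name, of 25587 genes listed. All oocytes were Wild-type and came from C57BL/6Babr mice. Non-growing oocytes (NGOs) came from females at 5 days post partum (dpp) and measured 10 to 40 µm, a first group of growing oocytes (GO1) came from 8 to 14 dpp (25 to 70 µm), a second (GO2) from 15 dpp (50 to 70 µm), and fully grown germinal vesicle oocytes (FGOs), over 70 µm, from 20 dpp. Each stage was a pool of oocytes sequenced as 1 library, so no spread between replicates could be measured and no test between stages was possible. Intervals below are 95 % intervals that cover counting error alone. They treat each recovered count as 1 independent fragment. The counts on genes, 63862214 in NGOs to 140787573 in GO2, exceed in each library the raw reads that the study lists. The counts therefore cannot all be independent fragments, and the intervals are too narrow by an amount that was not measured. The library totals behind these counts, 110595207 in NGOs to 241385712 in GO2, exceed the raw reads as well. NGO and FGO RNA went through a dUTP protocol and GO1 and GO2 RNA through a ScriptSeq kit, so that from NGO to GO1 and from GO2 to FGO the stage and the protocol cannot be told apart.

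Homeobox genes encode transcription factors that bind DNA through a homeodomain. The Obox genes are a rodent family of the PRD class, arranged as a tandem array with many pseudogenes, and are known for transcription in the oocyte and the early embryo. OBOX proteins, stored in the egg and made again after fertilisation, take part in the activation of the embryo's genome, with Obox1, Obox2, Obox5 and Obox7 described as maternal members and Obox3 as a gene that is switched on in the embryo.

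On chromosome 7 of GRCm38 the 5 rows span 485642 bases. Obox2 lies at chr7:15354037-15398545, Obox1 at chr7:15512340-15556866 and Obox5 at chr7:15750134-15759800, all on the plus strand. Obox3 (chr7:15479825-15639902) and Obox6 (chr7:15833246-15839678) lie on the minus strand. The Obox1 row lies inside the Obox3 row on the opposite strand, and in GENCODE M21 their exons share 0 bases. RefSeq places Obox3 at chr7:15625306-15639777 and Obox1 at chr7:15547257-15556846, so these genes do not overlap in RefSeq. The Obox3 row thus reaches far beyond the RefSeq gene. The Obox2 and Obox1 rows start 34814 and 34917 bases before the RefSeq starts of these genes, whereas the Obox5 row starts 236 bases before. RefSeq lists 53 genes with an Obox symbol, of which 6 are protein coding and 47 are pseudogenes. The 6th coding gene, Obox7, stands in the table under its older name Gm4745 at chr7:14659708-14665995 on the plus strand. It was singled out after the table was read, and its values are given beside those of the members.

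**Figure D1:**
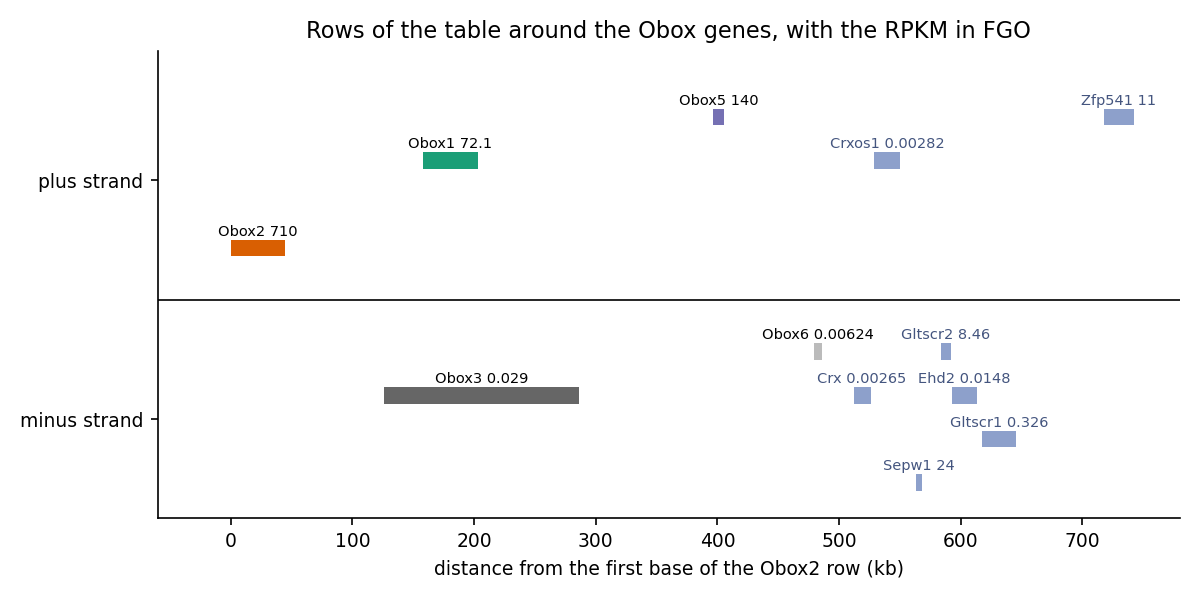
Rows of the table within 250 kb of the Obox genes, drawn to scale by distance in kb from the first base of the Obox2 row (x axis), with the plus strand above the line and the minus strand below. Each bar is 1 row and each number its RPKM in FGOs, 710 for Obox2, 140 for Obox5 and 72.1 for Obox1 against 0.029 for Obox3, and bar heights within a strand carry no value.

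The coding sequences show how alike the members are, which limits how far their reads can be told apart. The stretch below covers the part of the homeobox that ends with the codons of the conserved recognition helix. It was taken from GENCODE M21 transcripts on GRCm38, each in its coding direction, and lies in 2 exons in every gene. Capitals mark bases that differ from Obox1 at the same place, and in Obox2 also the bases on each side of a gap of 1 base.
Obox1 (chr7:15555618-15555704 and chr7:15556151-15556171): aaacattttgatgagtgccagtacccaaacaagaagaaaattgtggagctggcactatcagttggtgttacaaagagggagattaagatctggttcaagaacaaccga
Obox2 (chr7:15397301-15397386 and chr7:15397834-15397854): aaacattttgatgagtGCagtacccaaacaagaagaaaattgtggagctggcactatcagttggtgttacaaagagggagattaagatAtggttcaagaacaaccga
Obox5 (chr7:15757992-15758078 and chr7:15758539-15758559): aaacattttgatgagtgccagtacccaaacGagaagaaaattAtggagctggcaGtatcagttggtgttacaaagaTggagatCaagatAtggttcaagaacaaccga
Obox7 (chr7:14664493-14664579 and chr7:14665268-14665288): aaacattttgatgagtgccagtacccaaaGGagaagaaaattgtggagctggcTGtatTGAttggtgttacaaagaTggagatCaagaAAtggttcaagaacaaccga
Obox3 (chr7:15626796-15626882 and chr7:15626305-15626325, minus strand): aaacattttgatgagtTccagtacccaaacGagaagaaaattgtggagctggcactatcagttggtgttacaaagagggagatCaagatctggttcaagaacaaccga
Obox6 (chr7:15834380-15834466 and chr7:15833930-15833950, minus strand): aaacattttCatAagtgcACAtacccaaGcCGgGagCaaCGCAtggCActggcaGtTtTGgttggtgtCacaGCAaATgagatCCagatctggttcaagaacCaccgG

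Over the 108 bases of Obox1, Obox2 had 1 substitution and a gap of 1 base, Obox3 had 3 substitutions, Obox5 had 6, Obox7 had 11 and Obox6 had 30. The gap shifts the frame that GENCODE annotates for Obox2: the reading frame reaches the codons of that helix with an offset of 2 bases and holds 151 codons, against 204 for Obox1, 218 for Obox7, 291 for Obox5, 335 for Obox3 and 347 for Obox6. All 4 Obox2 transcripts in GENCODE M21 carry the same offset, and whether the mice sequenced here carry the gap was not tested. Of the 453 coding bases of Obox2, 447 aligned to identical bases of Obox1 and 6 to different ones.

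In the longest annotated transcripts, 578 of 1360 windows of 100 bases in Obox2 (42.5 %) occurred word for word in an Obox1 transcript, as did 578 of 1413 windows of Obox1 (40.9 %) in Obox2. Reads were 100 bases long, paired, and each was placed at 1 position, so reads from these windows could have been given to either gene. Obox5 shared 2 of 1732 windows (0.115 %) with Obox7, and Obox7 shared 37 of 1377 (2.69 %) with Obox5. Obox6 shared 0 of 1245 windows with transcripts of any other gene. Only annotated transcripts were searched, and only for exact matches, so near matches and copies elsewhere in the genome were not counted. In Obox3, 299 of 1880 windows (15.9 %) also occurred in transcripts of 5 other genes, most of them (251) in the pseudogene Obox3-ps3. The split of reads between Obox1 and Obox2 is therefore uncertain, and the changes below are also given for their sum. Levels, places, shares and ratios of each gene carry this uncertainty.

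RNA of Obox2, Obox5 and Obox1 was present in all 4 libraries, and each was lowest in NGOs. Levels are in RPKM, which divides a gene's reads by its exon length and by a total of the library, so that genes can be compared with each other. Obox2, the most abundant member, had 52.75 RPKM in NGOs, 378.4 and 449.0 in GO1 and GO2, and 709.9 in FGOs. Obox5 had 27.24 RPKM in NGOs, 124.4 and 136.2 in GO1 and GO2, and 139.9 in FGOs. Obox1 had 7.358 RPKM in NGOs, 66.22 and 75.95 in GO1 and GO2, and 72.11 in FGOs. The order Obox2, Obox5, Obox1 was thus the same in the 4 libraries, and counting intervals of neighbours in this order did not overlap in any. In FGOs the intervals ran from 706.2 to 713.6 RPKM for Obox2, from 138.4 to 141.3 for Obox5 and from 70.98 to 73.25 for Obox1. In NGOs they ran from 51.7 to 53.82 RPKM for Obox2, from 26.58 to 27.91 for Obox5 and from 6.985 to 7.745 for Obox1.

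The values of Obox2 rested on 9615 counts in NGOs, 79069 and 178597 in GO1 and GO2, and 139956 in FGOs, which were recovered from the RPKM values. Obox5 had 6426, 33654, 70149 and 35692 counts, and Obox1 had 1459, 15054, 32873 and 15467. Ranked by RPKM among all 25587 genes, Obox2 held place 508 in NGOs, 45 and 29 in GO1 and GO2, and 13 in FGOs. Obox5 held places 1278, 147, 124 and 135, and Obox1 places 4581, 377, 300 and 331. Obox2 moved up at every step, while Obox5 stayed within places 124 to 147 and Obox1 within 300 to 377 from GO1 on.

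Obox7 (Gm4745) had 16.37 RPKM in NGOs, 49.19 and 58.6 in GO1 and GO2, and 111.6 in FGOs, from 2286, 7877, 17866 and 16856 counts. It lay above Obox1 in the dUTP libraries NGO and FGO and below Obox1 in the ScriptSeq libraries GO1 and GO2, with no overlap of the counting intervals in any of the 4 libraries. The protocol and the stage cannot be told apart in this crossing.

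Obox3 and Obox6 stood at or near 0. Obox3 had 0 counts in NGOs, 5 and 25 in GO1 and GO2, and 9 in FGOs, or 0, 0.0152, 0.0399 and 0.029 RPKM. A limit of 3 counts was set per library, or 0.0105 RPKM for Obox3 in NGOs, but the counting interval of the 0 there reaches 0.01285 RPKM. The FGO level, on 9 counts, had an interval from 0.01326 to 0.055 RPKM. The bounds nearly meet, so no fold is given. These counts came from a gene that shares windows with pseudogenes of the array, and the part of such reads in them was not tested. Obox6 had 0 counts in NGOs and GO1 and 1 each in GO2 and FGOs, below the limit of 3 counts in all 4 libraries, so that its transcripts were not detectable at this depth and no fold is given. The upper bounds of its counting intervals were 0.0249 RPKM in NGOs, 0.0217 and 0.0172 in GO1 and GO2, and 0.0348 in FGOs.

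**Figure D2:**
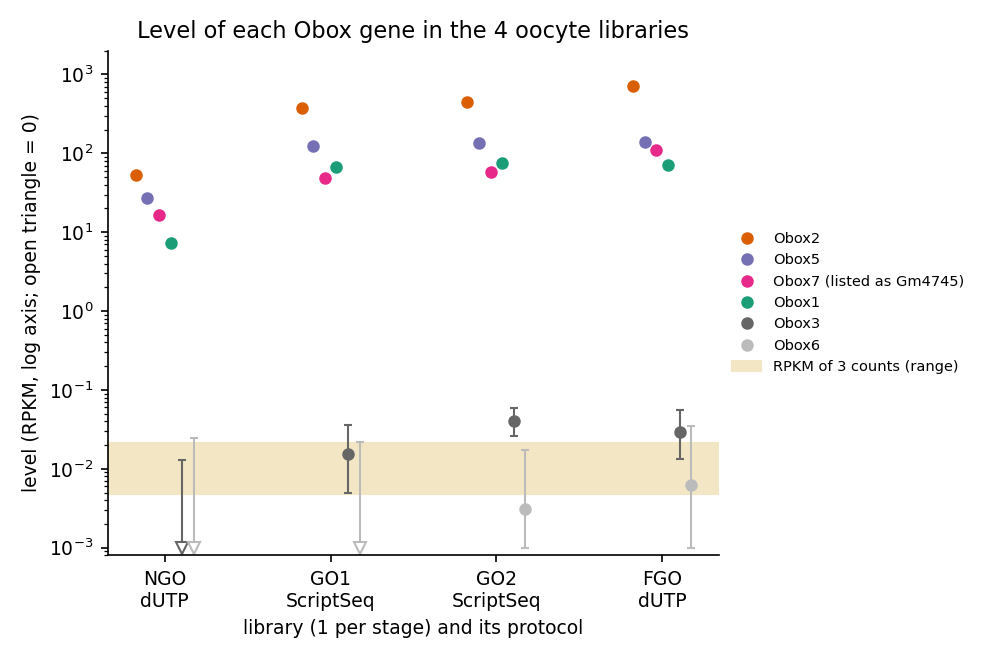
Level of each Obox gene (RPKM, log axis) in the 4 libraries (x axis, with the library protocol), as points with 95 % Poisson intervals for counting error; open triangles stand for 0 and the shaded band spans the RPKM that 3 counts give for these genes. Obox2, Obox5, Obox7 and Obox1 lie between 7.36 and 710 RPKM, and Obox3 and Obox6 at 0.0399 RPKM or less.

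From NGOs to FGOs, the pair made with the dUTP protocol, the 3 abundant members were all higher in FGOs by more than 4-fold. Library sizes were scaled for this by trimmed log ratios, and a gene needed 20 counts or more over the 2 libraries. Obox2 went from 52.75 to 709.9 RPKM and was 14-fold higher in FGOs (log2 change 3.8, interval 3.77 to 3.83). Obox1 was 10.2-fold higher (log2 change 3.34, interval 3.27 to 3.42), and Obox5 was 5.33-fold higher (log2 change 2.41, interval 2.37 to 2.45). The 3 intervals do not overlap, though they are too narrow and cover no spread between replicates. Obox1 and Obox2 counted together had 11074 counts in NGOs and 155423 in FGOs, a log2 change of 3.75.

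Among the 15270 genes with enough counts in this pair, 8.57 % were at least 4-fold higher in FGOs and 5.55 % at least 4-fold lower. Past that fold were 3 of the 5 members in the higher direction and 0 in the lower, and the other 2, Obox3 and Obox6, had too few counts to be placed. By the size of the change, Obox2 held place 359 from the top, Obox1 place 538 and Obox5 place 1003. Obox7 was 7.07-fold higher in FGOs (log2 change 2.82, interval 2.76 to 2.89) and held place 752. Changes are relative to the libraries: the median log2 change over all genes in the pair was -0.01 after scaling. The share of the pooled cells that hold RNA of a gene and its amount per cell cannot be told apart.

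From GO1 to GO2, the pair made with the ScriptSeq kit, Obox1, Obox2 and Obox5 differed little. Obox2 went from 378.4 to 449.0 RPKM, a log2 change of 0.21 (interval 0.20 to 0.23). Obox1 changed by 0.16 on the log2 scale (interval 0.14 to 0.19) and Obox5 by 0.10 (interval 0.08 to 0.12). These intervals exclude 0 but are too narrow. The median over all genes in this pair was 0.02, or 0.08 when libraries were scaled by total counts. Obox1 and Obox2 together changed by 0.21. Obox3, with 5 and 25 counts, had a log2 change of 1.25 with an interval from -0.05 to 3.10 that includes 0. Of 15749 genes, 1.51 % were at least 4-fold higher in GO2 and 0.254 % at least 4-fold lower, and 0 of the 5 members were among them.

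**Figure D3:**
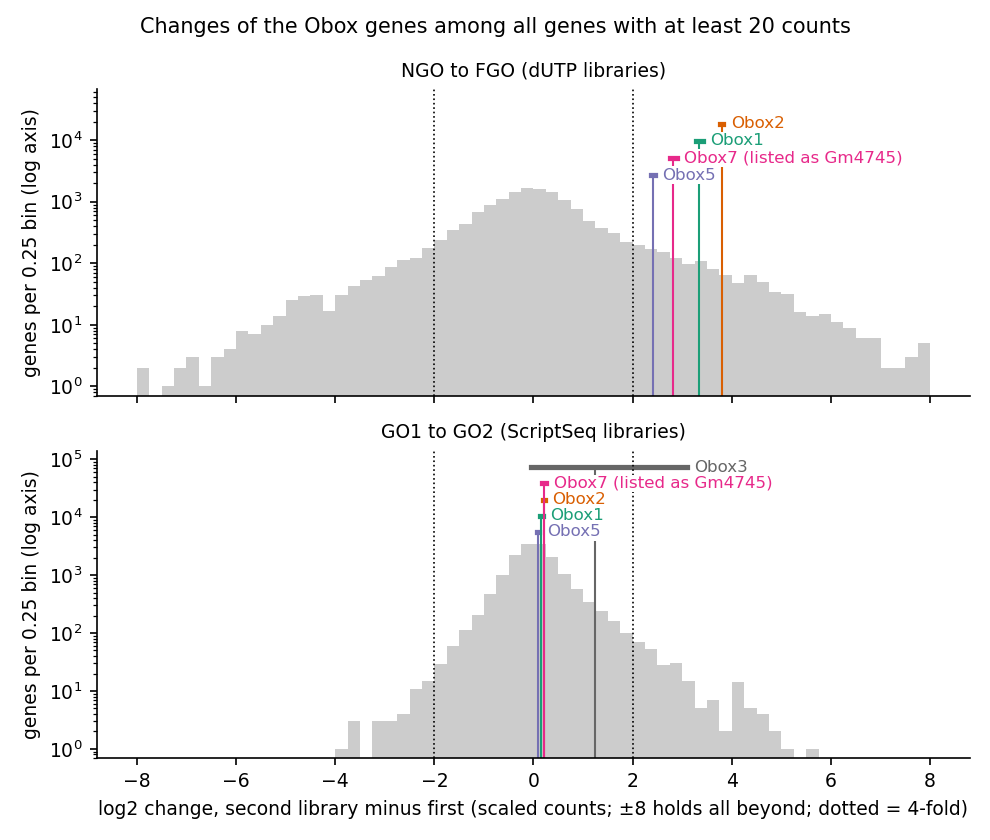
Number of genes (y axis, log scale) by log2 change (x axis, second library minus first, bins of 0.25) from NGO to FGO and from GO1 to GO2, for all genes with 20 counts or more over the 2 libraries; coloured lines stand for Obox genes with horizontal bars for their 95 % counting intervals, and dotted lines for 4-fold. From NGO to FGO, Obox5, Obox7, Obox1 and Obox2 lie at 2.41, 2.82, 3.34 and 3.8, and from GO1 to GO2 all but Obox3 (1.25) lie between 0.10 and 0.22.

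Across protocols the same values fall into a first and a last step. From NGO to GO1 the log2 change was 3.30 for Obox1, 2.97 for Obox2 and 2.32 for Obox5, or 9.83-fold, 7.84-fold and 4.99-fold higher in GO1, where 5.19 % of genes were at least 4-fold higher. From GO2 to FGO it was 0.55 for Obox2 (interval 0.54 to 0.56), -0.18 for Obox1 (interval -0.21 to -0.16) and -0.07 for Obox5, and 1.79 % of genes were at least 4-fold higher in FGOs, with 0 of the 5 members among them. In the deposited RPKM without scaling, the Obox1 value was -0.07 and the Obox5 value 0.04, so the latter has no firm sign. Obox1 and Obox2 together changed by 3.02 and 0.46 in these steps. These steps share their libraries with the comparisons above and are no separate evidence.

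Obox2 made up more of the summed Obox level in FGOs than in NGOs. The 5 members added up to 87.35 RPKM in NGOs, 569.1 and 661.2 in GO1 and GO2, and 921.9 in FGOs, and their reads made up 0.0274 %, 0.169 %, 0.2 % and 0.261 % of the counts on genes. Obox2 supplied 60.4 % of the sum in NGOs, 66.5 % and 67.9 % in GO1 and GO2, and 77.0 % in FGOs. Obox5 supplied 31.2 %, 21.9 %, 20.6 % and 15.2 %. Obox1 supplied 8.42 % in NGOs, 11.6 % and 11.5 % in GO1 and GO2, and 7.82 % in FGOs, so its share was higher in the ScriptSeq libraries than in the dUTP libraries. The ratio of Obox2 to Obox1 in RPKM was 7.17 in NGOs, 5.71 and 5.91 in GO1 and GO2, and 9.84 in FGOs, and that of Obox5 to Obox1 was 3.70 in NGOs and 1.79 to 1.94 in the other libraries. With Obox7 added to the sum, the Obox2 share was 50.9 % in NGOs and 68.7 % in FGOs.

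**Figure D4:**
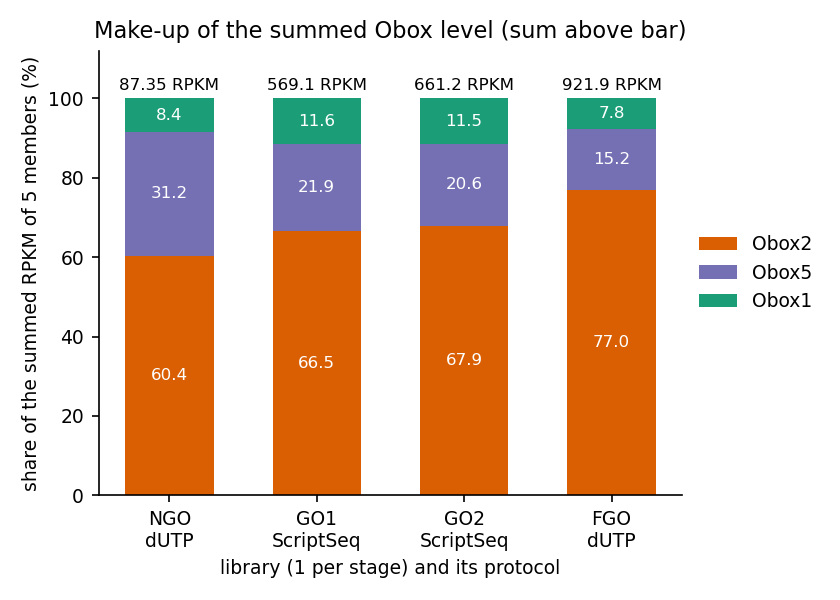
Share (%) of Obox2, Obox5 and Obox1 in the summed RPKM of the 5 members in each library (x axis, with its protocol), with the sum in RPKM above each bar; Obox3 and Obox6 supply too little to be seen. The Obox2 share is 60.4 % in NGOs and 77.0 % in FGOs while the Obox5 share is 31.2 % and 15.2 %.

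The label of the libraries as oocytes was checked with marker genes. All 9 oocyte markers were present in each library, from 28.4 to 2260 RPKM, among them Zp2, an egg coat protein, at 2260 RPKM in NGOs and 1050 in FGOs. Their summed level was 6310 RPKM in NGOs and 4200 to 4510 in the others, and 0 of 9 changed 4-fold from NGOs to FGOs. The 7 granulosa cell markers summed to 2.27 RPKM in NGOs, 2.42 and 5.04 in GO1 and GO2, and 10.6 in FGOs, with 2 of 7, Cyp19a1 and Hsd17b1, at least 4-fold higher in FGOs than in NGOs and 0 lower. Cyp19a1 had 0.518 RPKM in NGOs and 6.08 in FGOs, whereas Foxl2 had 0.0753 and 0.0265. The 6 stroma markers summed to 5.51 RPKM in NGOs and to 0.158 to 0.245 in the others (with Lum at 0 there and Col1a1 at 0.0191 or less). Of 5 with enough counts, 4 were at least 4-fold lower in FGOs, but Pdgfra had 0.189 RPKM in NGOs and 0.151 in FGOs. The 5 endothelium and blood markers listed summed to between 2.73 and 9.82, nearly all of it Pecam1 after the NGO stage. From NGOs to FGOs, Pecam1 was higher (log2 change 2.53) and Hba-a1 lower (-6.39). Recovered counts on genes were 63862214 to 140787573 per library, highest in GO2. The summed granulosa marker level and the abundant Obox genes both stood higher in FGOs than in NGOs, and a part of granulosa RNA in the Obox values was not tested.

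Few other homeobox genes of the PRD class reached such levels. Of 70 listed genes, 65 are in the table, 40 reached 3 counts in a library and 8 reached 1 RPKM. Nobox, a homeobox regulator of oocyte genes, had 125 RPKM in NGOs and 101 to 114 in the others. It lay above Obox2 in NGOs (52.75 RPKM) and below Obox5 in GO1, GO2 and FGOs. Sebox, a maternal homeobox gene, had 7.8 RPKM in NGOs and 40 in FGOs, a log2 change of 2.41, as for Obox5. Gsc, the goosecoid gene of the early embryo, had 3.5 RPKM in NGOs and 5.66 in FGOs. Rhox1, of the reproductive homeobox cluster on the X chromosome, went the other way, from 5.39 to 0.53 RPKM.

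Of 19 PRD-class genes with enough counts from NGOs to FGOs, 3 were at least 4-fold higher and 5 at least 4-fold lower, with a median log2 change of -0.21 against -0.01 over all genes. Sebox was among the higher ones. The lower ones were Rhox1, Rhox10, Rhox2a, Rhox4a and Dmbx1, of which all but Rhox1 are named here after their values were seen, and Rhox2a and Rhox4a belong to duplicated subfamilies, so that their counts are uncertain. From GO1 to GO2, 0 of 21 were higher and 1, Rhox4a, was lower (log2 change -2.13, on 18 and 7 counts).

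**Figure D5:**
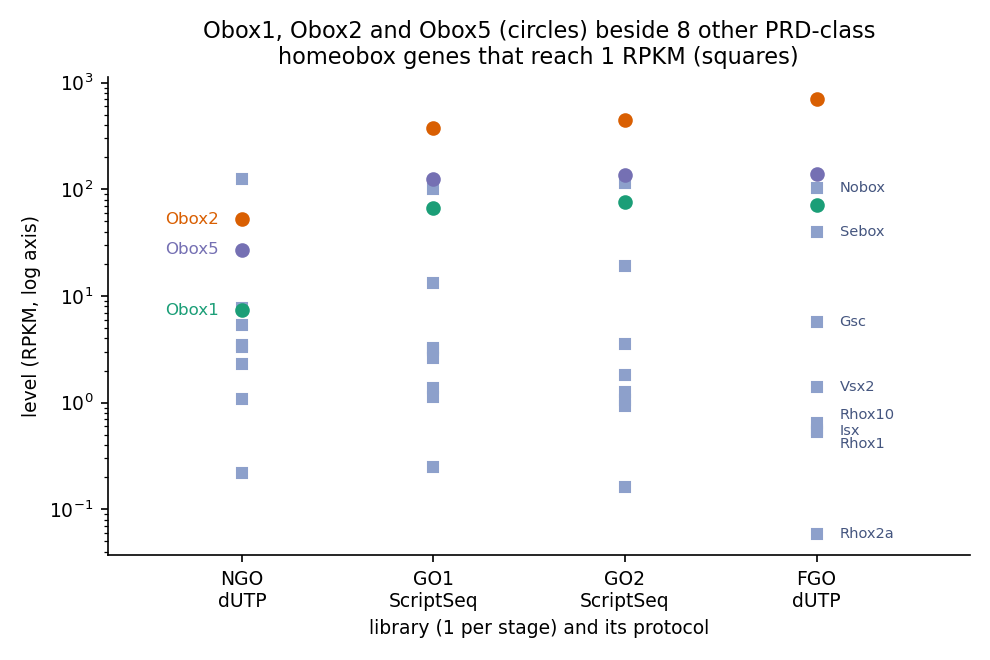
Level (RPKM, log axis) in each library (x axis, with its protocol) of Obox2, Obox5 and Obox1 (circles) and of the 8 other PRD-class homeobox genes that reach 1 RPKM in a library (squares, named at the right). Of the squares, Nobox alone lies above 100 RPKM, and Sebox has 7.8 RPKM in NGOs and 40 in FGOs.

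Transcription regulators of germ cells were at similar or lower levels in FGOs. Of 9 listed, 0 were at least 4-fold higher in FGOs and 3 were at least 4-fold lower, Figla, Sohlh1 and Sohlh2, and the median log2 change was -0.51. Figla, which activates egg coat genes, had 102 RPKM in NGOs and 20.6 in FGOs. Sohlh1, a helix-loop-helix regulator upstream of Nobox, Figla and Lhx8, had 78.0 RPKM in NGOs and 0.577 in FGOs (log2 change -7.01). Pou5f1, the pluripotency factor OCT4, had 64.5 RPKM in NGOs, 38.8 and 37.9 in GO1 and GO2, and 54.8 in FGOs. From GO1 to GO2, 0 of the 9 passed 4-fold in either direction.

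Maternal factors that are linked, like OBOX proteins, to activation of the embryo's genome changed less than the abundant Obox genes. Of 12 listed genes, 11 had enough counts in each pair, 0 passed 4-fold in either pair and either direction, and the median log2 change from NGOs to FGOs was 0.64. Klf17, a zinc finger factor, had 33.4 RPKM in NGOs and 72.2 in FGOs, and Trim24, a chromatin reader and co-regulator, had 46.1 and 55.8. Dppa2, an activator of early embryo genes, had 11.5 RPKM in NGOs, 40.6 in GO2 and 22.3 in FGOs. Yap1, the co-activator of the Hippo pathway, had 16.0 RPKM in NGOs and 35.6 in FGOs. In FGOs, Klf17 thus stood at about the level of Obox1 (72.11 RPKM).

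Of 23 listed genes known from the 2-cell embryo, 16 are in the table and 4 reached 1 RPKM in a library. Tcstv1 had 6.75 RPKM in NGOs and 20.7 in FGOs, and Tcstv3, which encodes a related 2-cell protein, had 2.3 and 9.31. Of 7 with enough counts from NGOs to FGOs, 4 were at least 4-fold higher and 0 lower: Tcstv3 (log2 change 2.06), Zscan4b (3.60), Zscan4c (4.0) and Zscan4d (3.61), the last named after its values were seen. The median log2 change of the 7 was 2.06. The Zscan4 genes are near-identical copies, so their separate counts are uncertain, and the highest of their values was 2.34 RPKM. From GO1 to GO2, 0 of 9 passed 4-fold.

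The genes beside the array did not show the same values. Within 250 kb of the members the table lists 7 other genes, 0 of them between the first and the last member. All 7 lie past Obox6, so no gene on the Obox2 side was compared. Sepw1, a selenoprotein gene, was the highest at 35.6 RPKM in NGOs, 10.3 and 14.4 in GO1 and GO2, and 24.0 in FGOs. Gltscr2, a nucleolar protein gene, had 16.8 RPKM in NGOs and 8.21 to 8.52 in the others, and Zfp541, a zinc finger gene, had 9.11 and 11 in NGOs and FGOs. Gltscr1 and Ehd2 stayed at 0.605 RPKM or less. Crx, the homeobox gene of photoreceptors next to Obox6, and its neighbour Crxos1 had 0 counts in NGOs, GO1 and GO2 and 1 count in FGOs, under the limit of 3. Of the 5 neighbours with enough counts from NGOs to FGOs, 0 passed 4-fold, and log2 changes lay between -1.32 for Ehd2 and 0.37 for Gltscr1.

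Likeness was measured as the Euclidean distance between log2(RPKM + 0.1) values, each centred on the gene's mean, over the 4 libraries and among 15667 genes with at least 20 counts in a library. The profile nearest to Obox1 was that of Zfp616, a zinc finger gene on chromosome 11, at a distance of 0.114, with 2.23 RPKM in NGOs and 20.3 to 22.9 in the others, followed by Gm14271 (0.267) and Slc26a9 (0.299). Nearest to Obox2 were Nlrp9c (0.183), an NLRP gene of the oocyte with 3.3 RPKM in NGOs and 45.1 in FGOs, Lhb (0.282) and Mill1 (0.316). All 3 are on chromosome 7, where none of those named for Obox1, Obox5 or Obox3 lies. The share of the compared genes on that chromosome was not counted. Nearest to Obox5 were Raet1c (0.15), Il10rb (0.161) and the predicted gene CT954323.1 (0.168). For Obox3, whose values near 0 give an almost flat profile on this scale, Treml4, Stk38l and 1810019D21Rik came first. These genes are named because they are the nearest, and no member was among the 3 nearest to another. By distance from Obox1, Obox2 held place 37 (0.622) and Obox5 place 80 (0.846). From Obox2, Obox5 held place 146 (0.988). With 4 libraries such distances are descriptions.

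Since Obox1, Obox2 and Obox5 were all higher in FGOs than in NGOs, the sequence around their starts was compared in RefSeq windows of 300 bases on GRCm38.p6 (250 before and 50 after the start), which were found for Obox1, Obox2, Obox3, Obox5 and Obox7. The windows are near copies. Obox5 and Obox7 were identical at 265 of 273 aligned bases (97.1 %), Obox1 and Obox5 at 273 of 285 (95.8 %), and Obox2 and Obox1 at all 203 bases over which their windows overlap, as the RefSeq start of Obox2 lies farther upstream in this shared sequence. Obox3 aligned to Obox5 at 162 of 175 bases (92.6 %) but from 125 bases before its start onwards, with no alignment of the bases before that. The windows of 4 genes held the TATA-like run TATATAA, searched on either strand after the sequences had been read. It is shown in capitals in 30 bases of each gene's own strand, because the run is kept both in abundant members and in Obox3, which stood near 0.
Obox1 (chr7:15547229-15547258): ttgcagagaTATATAAgggcaggtcttctg
Obox5 (chr7:15750330-15750359): ttgcagagaTATATAAgggcaggtcttctg
Obox7 (chr7:14659694-14659723): ttgcagagaTATATAAgggcaggtcttctg
Obox3 (chr7:15639787-15639816, minus strand): ttggagagaTATATAAgggcaggtcttctg

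The run began 19 bases before the RefSeq start in Obox1, 31 in Obox5, 5 in Obox7 and 30 in Obox3, and 3.24 % of all 32851 windows hold it. In Obox1, Obox5 and Obox3 it lies inside the measured row, which starts 34917, 236 and 125 bases before the RefSeq start. The Obox2 row starts 34814 bases before, and GENCODE starts Obox7 at base 14659496, upstream of its run. Which start the RNA measured here came from was not tested, so the run cannot be placed relative to it. The Obox2 window, placed farther upstream, ends before the bases that would align to this run, so nothing can be read from its absence there. CANNTG, the E-box bound by helix-loop-helix factors, occurred in 4 of the 5 windows (all but Obox3), against 72.3 % of all windows. CCAAT was found in Obox2, Obox7 and Obox3 (37.4 % of all windows hold it), and TAATCC and TATAAA in Obox3 (7.06 % and 13.6 %). TAATTA and TAATTG were in none of the 5, against 5.29 % and 8.0 % of all windows. Both strands were searched, and 5 windows of 1 shared sequence are not independent.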

How the data were processed

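RNA of 4 oocyte stages was sequenced, as 1 library each. Per the labels and the study's methods, the authors trimmed reads with Trim Galore 0.2.8 and mapped them to GRCm38 with TopHat2 2.0.9, keeping 1 position per read. Although named read counts, the deposited values are linear RPKM, so no model for raw counts was fitted. The annotation, counting program and strand setting are not given in the sources used here. The table has 0 columns of other samples.

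Counts were recovered as RPKM times exon length times a library total fitted on 2016 genes with 1 exon in GENCODE M21 (99.37 % to 99.66 % of their values above 0 were whole within 0.0001 counts plus 3e-07 of the count). Exon lengths were fitted as well: of 21023 genes with a value above 0, 10232 got the smallest length that fits, and for 78 none fitted closely. Fitted lengths were 1793 bases for Obox1, 1648 for Obox2 and 2133 for Obox5, against GENCODE exon unions of 1900, 1646 and 2136. Recovered counts therefore depend on these lengths. The steps were tested on simulated data. Library sizes followed trimmed means of log ratios (TMM, 30 % of ratios and 5 % of expression trimmed at each end, prior count 1), with a minimum of 20 counts in a pair and a threshold of 4-fold. Intervals are Poisson for levels and exact binomial (Clopper-Pearson) for changes, at 95 %, and the limit for detection was set at 3 counts. Since recovered counts exceed the raw reads, the limits of 3 and 20 counts may stand for fewer independent fragments. Named were the members, all other genes within 250 kb, the 4 most abundant genes of each list and the 3 most similar profiles per member. The members and lists were chosen with earlier results of these data known. Python 3.11.15, numpy 2.4.6, scipy 1.17.1 and Biopython 1.88 were used. Other scalings, prior counts, pseudocounts, filters and thresholds were tried.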

Additional observations from a re-analysis of the deposited data

How the results depend on the processing

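Obox1, Obox2 and Obox5 stayed at least 4-fold higher in FGOs than in NGOs under all 6 other scalings, prior counts and pseudocounts. Their log2 changes from NGOs to FGOs became 3.21, 3.67 and 2.28 with total counts, 3.13, 3.73 and 2.32 on log2(RPKM + 1), and 3.75 and 2.36 for Obox2 and Obox5 in unscaled RPKM and on log2(RPKM + 0.1). From GO1 to GO2 they became 0.23, 0.28 and 0.16 with total counts, and 0.20, 0.25 and 0.13 in unscaled RPKM with any pseudocount. Obox1 and Obox2 counted together, an alternative chosen after seeing the data, gave 3.75 and 0.21. The number of genes past 4-fold from NGOs to FGOs was 2157, and 970 on log2(RPKM + 0.1), 190 on log2(RPKM + 1), 3267 with no filter, 1392 with at least 100 counts and 5264 past 2-fold. From GO1 to GO2 it was 278, and 147 with a prior count of 5, 33, 1, 1038, 90 and 1532 under the same alternatives. Of 46 alternative values within a protocol 21 stayed within the counting interval and 25 moved. Across protocols 16 of 46 stayed and 30 moved. No value past 4-fold turned direction in either. The Obox5 change from GO2 to FGO, -0.07, became 0.04 in unscaled RPKM with any pseudocount. With pseudocount 1, 1 of the 3 most similar profiles was kept for Obox1, Obox2 and Obox5 and 0 for Obox3.

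No paired analysis was possible because each stage has 1 library. Depth does not limit the 3 abundant members, but it does limit Obox3 and Obox6. Leaving out a replicate was not possible either.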
